A study of Mus musculus with 101 samples.

Results

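RNA of whole cortical tissue was compared between 2 brain areas, labelled PFC and VCX, in mice that had received phosphate-buffered saline (PBS) only. The labels do not spell the area names out; in cortical anatomy PFC usually stands for prefrontal cortex and VCX for visual cortex. The comparison used 24 of the series' 101 libraries: every input library of a PBS mouse, 12 from PFC and 12 from VCX, taken 1, 2 or 14 days after the intraperitoneal injection, with day as a block. Each area and day had 4 libraries, 2 from females and 2 from males, all labelled strain C57. Input is polyA RNA of the cleared tissue lysate, before astrocyte ribosomes were pulled down through a haemagglutinin (HA) tag, so it holds RNA of all cell types. The tag system of the series applies to all groups, and the promoter or Cre line that places the tag in astrocytes is not given in the sources used here. The other arm of the series received lipopolysaccharide (LPS) at 5 mg/kg, and its 23 input libraries (12 PFC, 11 VCX) and the 24 astrocyte pulldown (IP) libraries of the PBS mice served as further measurements of the same areas. The study states that PFC samples were compared with VCX samples.

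The cerebral cortex is built from the same classes of layered excitatory neurons, inhibitory interneurons and glia in every area, but areas differ in the thickness of their layers and in their inputs. Primary sensory areas such as the visual cortex of rodents have a distinct granular layer 4 that receives thalamic axons, whereas the rodent prefrontal cortex is agranular, with little or no layer 4. Area identity is set in development by graded transcription factors, among them Nr2f1, and is read out in adult tissue as area-biased receptors, adhesion molecules and guidance genes.

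Values are FPKM, fragments per kilobase of transcript corrected for library size, scaled further between libraries, and can be compared between genes per length. Worked back from the FPKM, the 24 libraries held between 7985137 and 48063503 reads assigned to genes, the lowest in a PFC library of day 14 (replicate 2). Day coincided with the sequencing project named in the labels, so that day and project cannot be told apart; the areas are balanced within each. The labels do not say whether the libraries came from separate animals, or whether a PFC and a VCX library shared one, so p-values measure the spread between these libraries. Sex labels matched the data in all 24 libraries: Xist lay between 5.08 and 25.2 FPKM in the 12 female and at most at 0.159 in the 12 male libraries. The first principal component (30.4% of variance) set the day 2 libraries apart, and the third (12.9%) held all 12 PFC libraries on one side and all 12 VCX libraries on the other. Cytosolic ribosomal protein genes moved with day rather than area: their summed level averaged 17700 ± 2450 FPKM (SD, n = 4) in PFC and 17200 ± 4650 (SD, n = 4) in VCX on day 2, against 5050 ± 514 and 5580 ± 600 (both SD, n = 4) on day 1, and 0 of 74 differed between areas.

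**Figure D1:**
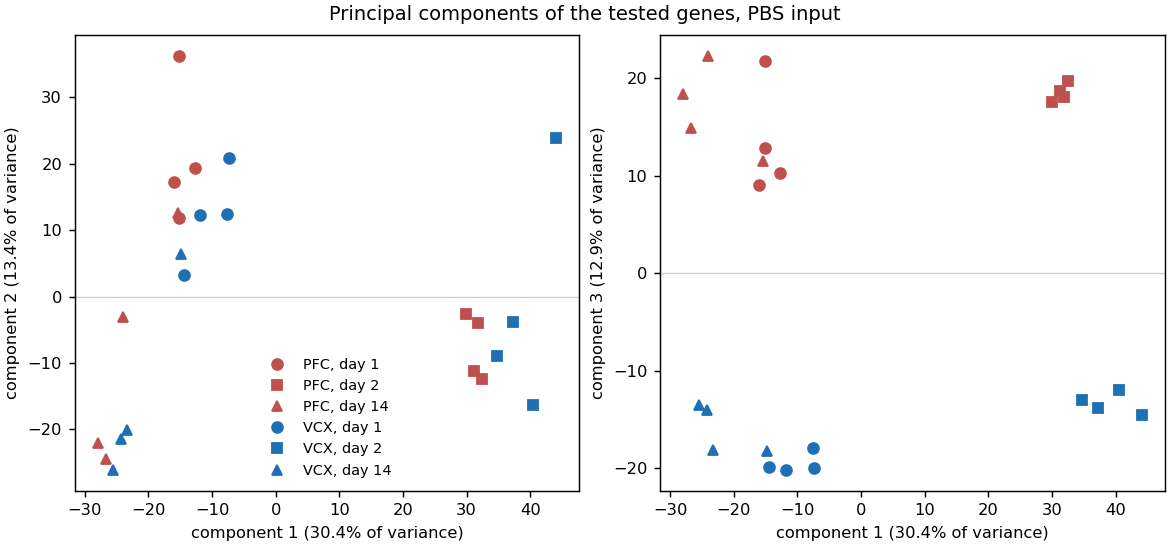
Scores of the 24 PBS input libraries on principal components 1 and 2 (left) and 1 and 3 (right) of the 13980 tested genes, with the share of variance on each axis. Colour marks the area and shape the day; the day 2 libraries sit apart on component 1, and component 3 separates the areas on every day.

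PFC and VCX differed in 3673 of 13980 tested genes, or 26.3% (limma, Benjamini-Hochberg adjusted p under 0.05; these genes are called below). Of the tested genes, 1825 (13.1%) were higher in PFC and 1848 (13.2%) were higher in VCX. Most differences were small: the median absolute log2 difference of the called genes was 0.27, 3087 of them (84.0%) were under 1.5-fold, and 175 reached 2-fold, 90 of these higher in PFC and 85 in VCX. In 462 genes (3.30% of those tested) the 12 libraries of one area all lay above the 12 of the other, 264 higher in PFC and 198 higher in VCX. All differences below are log2 PFC minus VCX with the standard error, and the median over all tested genes was -0.01. In whole tissue, fewer cells of a type and less RNA per cell cannot be told apart.

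The leading named genes in the PFC direction were a mixed group of secreted proteins, receptors and enzymes. Leading genes were chosen for the size of their difference among called genes without overlap between areas and with the same sign on each day. Genes with clone-like or predicted names were left out, such as 4930447C04Rik (2.34) and, higher in VCX, Gm765 (-2.22). The values of the leading genes are therefore a description, and the LPS input libraries below are the independent measure. Glipr1, which encodes a secreted protein of the CAP family, ranged from 1.48 to 5.09 FPKM (median 2.87) in PFC and from 0.143 to 1.0 (median 0.214) in VCX, a log2 difference of 3.08 ± 0.19 (SE; adjusted p = 8.69e-12). Sebox, a homeobox transcription factor gene (chromosome 11, 78503447 to 78505081, plus strand, in the GENCODE vM21 annotation of mm10), ran from 3.23 to 6.53 FPKM (median 5.18) in PFC against 0.529 to 1.36 (median 0.767) in VCX, a difference of 2.51 ± 0.11 (SE; adjusted p = 2.26e-14). In both genes every PFC library lay above every VCX library, a condition of their choice. Exons of Glipr1 overlap those of Krr1 on the other strand, and whether the counting used strand is not given in the sources used here, so reads of the pair cannot be told apart. The same limit holds for the genes named below whose exons overlap another gene: on the other strand Brinp3, Cux1, Cdh9, Tenm3, Sulf2, Syt6, Htr1b, Gabra5, Hcn3 and Tnr, and on the same strand Grm8, Grik4, Spp1 and Cdh12. In VCX Glipr1 was near the pseudocount of 0.1 FPKM added before taking logs, and with a pseudocount of 1 FPKM its difference was 1.64.

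Rxrg, the gamma retinoid X receptor (chromosome 1, 167598384 to 167639623, plus strand), had the tightest groups of the PFC set. Its 12 PFC libraries lay between 3.08 and 3.91 FPKM (median 3.48) and its 12 VCX libraries between 0.593 and 0.975 (median 0.817), a difference of 2.05 ± 0.073 (SE; adjusted p = 3.32e-16). Chrna5, the alpha5 subunit of nicotinic acetylcholine receptors, reached 2.35 to 3.97 FPKM (median 2.86) in PFC and 0.528 to 1.34 (median 0.774) in VCX (1.78 ± 0.096, adjusted p = 5.37e-13). Tnnc1, slow skeletal and cardiac troponin C, was the most abundant of the 12, at 26.1 to 41.7 FPKM (median 31.2) in PFC and 4.62 to 14.4 (median 10.5) in VCX (1.68 ± 0.14, adjusted p = 3.21e-09). Rspo2, a secreted enhancer of Wnt signalling, stood at 9.49 to 13.2 FPKM (median 10.5) against 2.31 to 5.14 (median 3.63), a difference of 1.59 ± 0.093 (SE; adjusted p = 2.35e-12). None of these genes overlapped between areas, as the selection required. The other leading PFC genes were Spink8 (2.29), a Kazal-type protease inhibitor, Urah (2.22), an enzyme of urate breakdown, Cep112 (1.92), a centrosomal protein, Prss35 (1.74), a serine protease homologue, Tmem40 (1.55), a transmembrane protein, and Lsp1 (1.53), an F-actin binding protein first described in lymphocytes. Urah and Cep112 share exon sequence with C330022C24Rik and Cep112os1 on the other strand.

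Higher in VCX were an endoribonuclease, a netrin, a nuclear receptor and several synaptic or secreted proteins. Endou, a poly(U)-specific endoribonuclease gene (chromosome 15, 97711015 to 97731339, minus strand) known as a marker of layer 4 neurons, had the largest difference of the named genes. It lay at 0.046 to 0.342 FPKM (median 0.204) in PFC and at 2.28 to 4.07 (median 2.97) in VCX, a difference of -3.37 ± 0.13 (SE; adjusted p = 2e-15), and it passed the low-value filter (at least 0.5 FPKM in 12 libraries) through VCX alone. With a pseudocount of 1 FPKM its difference was -1.74. Ntn5, a netrin family member, ranged from 0.546 to 1.36 FPKM (median 0.85) in PFC and from 4.48 to 8.17 (median 6.24) in VCX (-2.66 ± 0.1, adjusted p = 1.51e-15). Its exons overlap Sec1 on the other strand. Nr4a2, an orphan nuclear receptor (chromosome 2, 57106830 to 57124003, minus strand), ran from 2.23 to 3.58 FPKM (median 3.1) in PFC and from 9.7 to 20.3 (median 14.2) in VCX (-2.20 ± 0.09, adjusted p = 3.33e-15).

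Brinp3, a member of the BMP and retinoic acid inducible neural protein family, gave 6.23 to 8.16 FPKM (median 7.13) in PFC and 20.6 to 30 (median 25.1) in VCX, a difference of -1.81 ± 0.044 (SE; adjusted p = 2.11e-19). Fam19a2, a small secreted protein of the brain, gave 6.24 to 11 FPKM (median 8.13) against 23 to 36.0 (median 29), a difference of -1.77 ± 0.072 (SE; adjusted p = 3.1e-15). Every VCX library lay above every PFC library in both genes, which the selection required. The remaining leading VCX genes were Ctxn3 (-2.05), a cortexin, Qrfpr (-2.0), the receptor of the neuropeptide QRFP, Slc23a3 (-1.99), a member of the ascorbate transporter family, Akr1c18 (-1.97), a hydroxysteroid dehydrogenase that inactivates progesterone, Zar1l (-1.86), Cbln4 (-1.80), a synaptic organiser of the cerebellin family, and Atp6ap1l (-1.78). All 24 leading genes were called on each of the 3 days. The same sign on each day was a condition of their choice.

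**Figure D2:**
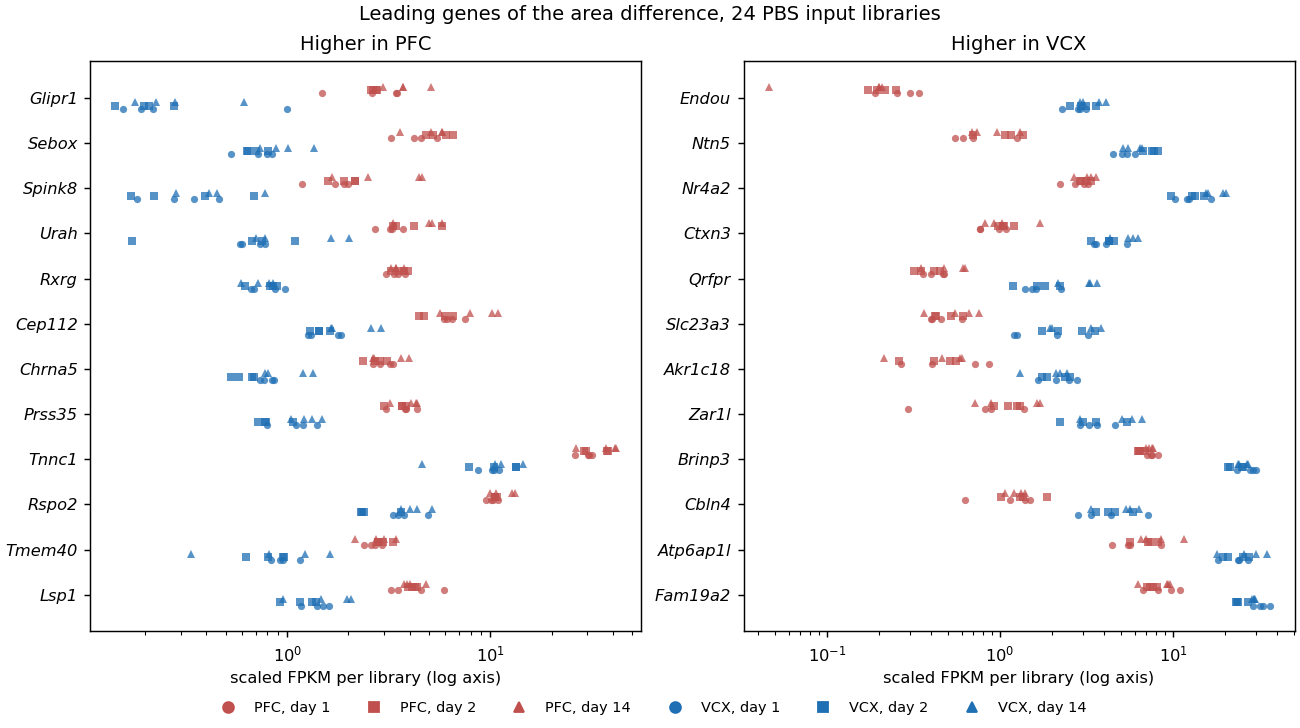
Scaled FPKM of the 12 leading genes per direction in each of the 24 PBS input libraries, on a log axis, with colour for the area and shape for the day. By selection, the 12 libraries of one area lie above the 12 of the other in every row. Endou, for example, lies at 0.046 to 0.342 in PFC and 2.28 to 4.07 in VCX.

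Genes of cortical layers differed between the areas, and most of those of layers 2 to 4 were higher in VCX. Of 9 tested layer 4 genes (10 listed), 7 were higher in VCX and 1 in PFC, with a median of -1.21, or -0.74 with a pseudocount of 1 FPKM. Rorb, the retinoid-related orphan receptor that marks layer 4 (chromosome 19, 18930605 to 19111196, minus strand), lay at 4.14 to 7.24 FPKM (median 5.21) in PFC and 11.2 to 23.6 (median 14.3) in VCX, without overlap, a difference of -1.48 ± 0.078 (SE; adjusted p = 3.43e-13). Scnn1a, the alpha subunit of the epithelial sodium channel, gave 0.0775 to 0.293 FPKM (median 0.126) against 0.519 to 1.52 (median 0.864), a difference of -1.96 ± 0.13 (SE; adjusted p = 2.21e-11). Scnn1a, like Endou, reached the filter through VCX alone. Whrn, a scaffold protein of hair cell stereocilia, differed by -1.41 ± 0.11, Rspo1, a relative of Rspo2, by -1.21 ± 0.099, Thsd7a by -0.89 ± 0.061 and the potassium channel Kcnh5 by -0.60 ± 0.077. The summed level of the list overlapped slightly, at 48.8 to 80.0 FPKM in PFC and 76.2 to 143 in VCX. Cdh9, a type II cadherin, was the listed gene higher in PFC (0.75 ± 0.088), and Nr1d1, a clock gene, was not called (-0.08).

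Upper layer genes went the same way with smaller differences: 10 of 14 tested were higher in VCX and 2 in PFC, with a median of -0.29. Under the alternatives, leaving out single libraries included, 6 to 10 were higher in VCX and 1 to 2 in PFC. Cux1, a homeobox gene of layers 2 to 4, ranged from 4.75 to 7.3 FPKM (median 5.3) in PFC and from 8.85 to 16.1 (median 10.7) in VCX, a difference of -0.98 ± 0.07 (SE; adjusted p = 7.73e-11). Its relative Cux2 ranged from 17.5 to 26.6 (median 23.2) and from 24.2 to 55.1 (median 32.7), with overlapping groups (-0.56 ± 0.068, adjusted p = 5.69e-07). Calb1, which encodes calbindin, differed by -0.37 and Rasgrf2 by -0.34. Dgkb (0.28) and Pou3f1 (0.20) were higher in PFC, and Wfs1 (0.05) was not called.

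Layer 5 genes leaned towards PFC: 10 of 16 were higher there and 1 was higher in VCX, with a median of 0.30. Htr2c, the serotonin 2C receptor, gave 2.99 to 6.22 FPKM (median 3.84) in PFC and 0.896 to 2.63 (median 1.63) in VCX (1.28 ± 0.12, adjusted p = 5.18e-09). Crym, a thyroid hormone binding protein, gave 55.7 to 120 FPKM (median 103) against 31.6 to 53.4 (median 40.4), a difference of 1.24 ± 0.098 (SE; adjusted p = 8.44e-10). Both genes were separated between the areas. Sulf2, a heparan sulfate editing enzyme, differed by 0.81 ± 0.056, Ldb2, a LIM domain binding cofactor, by 0.77 ± 0.054, and the corticospinal neuron regulators Bcl11b and Fezf2 by 0.43 ± 0.047 and 0.37 ± 0.061. Qrfpr was the 1 listed gene that went the other way.

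In deep layer 6 and the subplate the list split, with 5 of 15 tested genes higher in PFC, 3 higher in VCX and a median of 0.13. Sulf1, the paralogue of Sulf2, lay at 5.75 to 7.19 FPKM (median 6.39) in PFC and 1.74 to 2.67 (median 2.33) in VCX (1.47 ± 0.058, adjusted p = 2.37e-15). Syt6, a synaptotagmin, differed by 0.82 ± 0.069 and Trh, the precursor of thyrotropin-releasing hormone, by 1.25 ± 0.23 at levels of at most 2.14 FPKM. Nr4a2, Cplx3 (-0.53) and Ntsr1 (-0.41) were higher in VCX. Foxp2, a transcription factor of corticothalamic neurons, gave 2.36 to 4.19 FPKM in PFC and 2.25 to 5.44 in VCX and did not pass the test (-0.13 ± 0.083, adjusted p = 0.296).

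**Figure D3:**
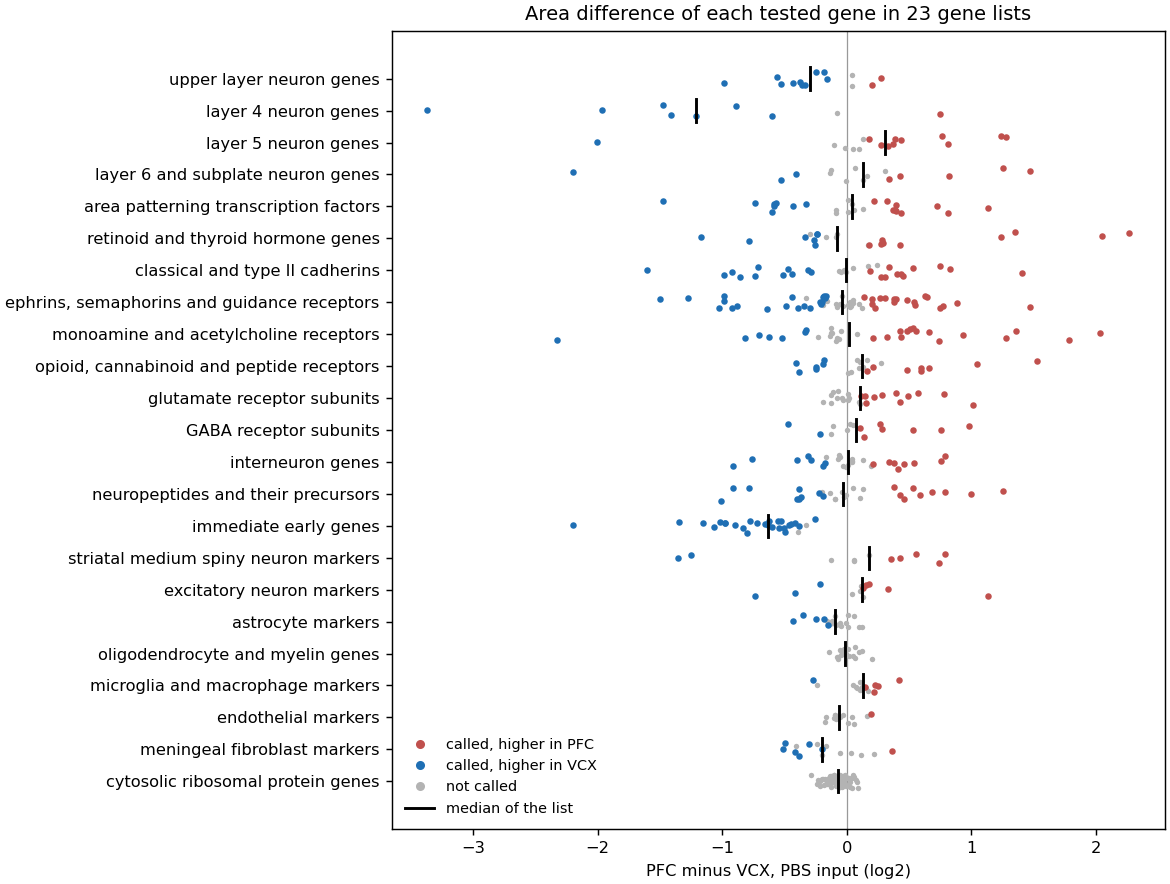
Log2 difference PFC minus VCX of each tested gene in 23 of the 38 gene lists, with called genes in red (higher in PFC) or blue (higher in VCX), other genes in grey and the list median as a black bar. The layer 4 list (median -1.21) and the immediate early gene list (median -0.63) lie left of 0, and the layer 5 list (median 0.30) lies right of it.

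Transcription factors of cortical patterning were called in both directions: 10 of 25 were higher in PFC and 8 in VCX, with a median of 0.04. Nr2f1, whose expression in the developing mouse cortex rises from rostral to caudal (chromosome 13, 78188973 to 78199757, minus strand), gave 24.8 to 36.9 FPKM (median 31) in PFC and 39.6 to 54.2 (median 46.1) in VCX. The groups did not overlap and differed by -0.60 ± 0.041 (SE; adjusted p = 3.55e-11). Its paralogue Nr2f2 differed by -0.59 ± 0.098, Bhlhe22 by -0.58 ± 0.049 and Emx1, a homeobox gene of excitatory neurons, by -0.74 ± 0.045. Nr2f1 exons overlap the antisense transcript A830082K12Rik.

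On the PFC side of the same list stood Neurod6, Lmo4 and Meis2. Neurod6, a basic helix-loop-helix factor of excitatory neurons, gave 39.5 to 84.8 FPKM (median 61.6) in PFC and 12.4 to 36.5 (median 29.2) in VCX (1.13 ± 0.087, adjusted p = 3.38e-10). Lmo4, a LIM-only factor enriched rostrally in the mouse cortex, gave 190 to 263 FPKM (median 210) against 87.8 to 172 (median 115), a difference of 0.81 ± 0.054 (SE; adjusted p = 2.22e-11). Meis2, a homeobox gene, differed by 0.72 ± 0.054. All 3 were separated between areas. Pax6, a factor of cortical progenitors that opposes Emx2 in the embryo, was not called (-0.09 ± 0.065), while Emx2 was higher in PFC (0.39 ± 0.092).

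Enzymes and receptors of retinoic acid and thyroid hormone also went both ways: 9 of 21 were higher in PFC and 7 in VCX (median -0.08). Aldh1a3, which makes retinoic acid, gave 1.33 to 2.47 FPKM (median 1.94) in PFC and 0.186 to 0.518 (median 0.307) in VCX, a difference of 2.27 ± 0.095 (SE; adjusted p = 5.28e-15). Cyp26b1, which degrades it, gave 0.713 to 1.47 FPKM (median 1.18) against 0.234 to 0.664 (median 0.368), a difference of 1.35 ± 0.11 (SE; adjusted p = 9.24e-10). Both were separated and passed the low-value filter through PFC, and both stood with Rxrg and Crym on the PFC side. Aldh1a1, another retinaldehyde dehydrogenase, went the other way, at 6.58 to 9.04 FPKM (median 7.76) in PFC and 15.5 to 19.4 (median 17.6) in VCX (-1.17 ± 0.05, adjusted p = 8.01e-15). Crabp2, a retinoic acid carrier, differed by -0.78 ± 0.13. The receptors other than Rxrg differed less, from -0.27 for Rxra to 0.43 for Rara.

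Receptors for serotonin, dopamine, noradrenaline, acetylcholine and histamine were more often higher in PFC: 15 of 32 tested genes (42 listed) were higher there and 7 in VCX, although the median was only 0.02. Adra1b, the alpha-1B adrenergic receptor (chromosome 11, 43774606 to 43901210, minus strand), lay at 7.49 to 11.5 FPKM (median 9.07) in PFC and 2.78 to 4.05 (median 3.42) in VCX (1.36 ± 0.054, adjusted p = 2.37e-15). Htr2a, the serotonin 2A receptor (chromosome 14, 74640840 to 74709494, plus strand), gave 14.0 to 18.8 FPKM (median 16.2) against 7.66 to 9.29 (median 8.44), a difference of 0.93 ± 0.039 (SE; adjusted p = 4.77e-15). Both were separated without overlap. Drd5, the D5 dopamine receptor, differed by 2.03 ± 0.11, from a VCX median of 0.376 FPKM to a PFC median of 1.82, and Drd1a, the D1 receptor, by 0.56 ± 0.057. Drd5 exons overlap Gm26560 on the other strand. Htr1b (0.74), Htr4 (0.66), Adra1a (0.54), Htr1f (0.50) and Chrna7 (0.49) were higher in PFC as well.

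In the VCX direction the list held Chrna6, the alpha6 nicotinic subunit, which lay at 0.026 to 0.123 FPKM (median 0.0744) in PFC and 0.517 to 1.06 (median 0.775) in VCX (-2.33 ± 0.11, adjusted p = 9.48e-14). This gene passed the filter through VCX alone. Hrh1, the histamine H1 receptor, differed by -0.70 ± 0.047, Adra2a by -0.63 ± 0.063 and Adrb1 by -0.52 ± 0.057. Htr1a, the serotonin 1A receptor, gave 3.97 to 5.87 FPKM in PFC and 4.16 to 6.88 in VCX and was not called (-0.12). Of genes that make or handle monoamines, 4 of 9 tested were higher in PFC and 1 in VCX. Maob, which oxidises amines, differed by 0.64 ± 0.06. Tph2, the neuronal serotonin synthesis enzyme, was at 0.151 to 0.45 FPKM in PFC and 0.811 to 1.91 in VCX (-1.83 ± 0.12), and Th, tyrosine hydroxylase, at 0.739 to 1.24 in PFC and 0.0855 to 0.492 in VCX (1.5 ± 0.16), each above the filter in 1 area only.

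Among opioid, cannabinoid and peptide receptors 8 of 22 were higher in PFC and 6 in VCX (median 0.12). Oprk1, the kappa opioid receptor, gave 1.68 to 2.44 FPKM (median 2.16) in PFC and 0.467 to 0.961 (median 0.722) in VCX (1.53 ± 0.095, adjusted p = 7.2e-12). Cnr1, the cannabinoid receptor of axon terminals, gave 54.9 to 77.8 FPKM (median 69.5) against 30.5 to 49.9 (median 45.8), a difference of 0.66 ± 0.043 (SE; adjusted p = 1.21e-11). These groups did not overlap. Hcrtr1, the orexin 1 receptor, differed by 1.04 ± 0.13 and Oprd1, the delta opioid receptor, by 0.48 ± 0.079, while the VCX-higher receptors Ntsr1, Npy2r, Oxtr, Crhr1, Vipr1 and Npy1r lay between -0.41 and -0.19.

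Ionotropic and metabotropic glutamate receptor genes that were called were all higher in PFC, 11 of 24 tested, with 0 higher in VCX and a median of 0.10. Grm8, a presynaptic metabotropic receptor, led with 14.2 to 17.7 FPKM (median 16.2) in PFC and 6.64 to 9.89 (median 7.78) in VCX (1.02 ± 0.038, adjusted p = 1.1e-15). Grik4, a kainate receptor subunit (0.58 ± 0.045), and the AMPA receptor subunit Gria1 (0.49 ± 0.037) were likewise separated, whereas the NMDA receptor subunits Grin1 (0.01) and Grin2b (0.02) were not called. Under the alternatives, leaving out single libraries included, 9 to 12 of these genes were higher in PFC and 0 to 2 in VCX. Of 14 GABA receptor genes, 7 were higher in PFC and 2 in VCX. Gabra5, the alpha5 subunit of extrasynaptic receptors, gave 27.1 to 36.2 FPKM (median 31.4) in PFC and 9.53 to 24.6 (median 17.1) in VCX (0.98 ± 0.074, adjusted p = 2.2e-10). Gabrg3 differed by 0.76 ± 0.067 in the same direction, and Gabrd, the delta subunit, by -0.47 ± 0.046.

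Voltage-gated potassium channel genes were nearly balanced, with 8 of 37 higher in PFC and 11 in VCX (median -0.09). Kcnab3, an auxiliary beta subunit, gave 8.32 to 11.8 FPKM (median 9.5) in PFC and 17.5 to 24.6 (median 19.4) in VCX (-1.01 ± 0.061, adjusted p = 4.55e-12), and Kcng1, a silent modulatory subunit, 4.22 to 8.36 (median 6.01) against 1.87 to 4.48 (median 2.79), with a difference of 1.04 ± 0.1 (SE; adjusted p = 2.57e-08). Kcnab3 was separated and Kcng1 overlapped. Kcnab3 shares exon sequence with its antisense gene Kcnab3os. Among sodium and HCN channels, 5 of 12 were higher in PFC and 2 in VCX: the pacemaker channel Hcn4 differed by 0.73 ± 0.074 and Hcn3 by 0.59 ± 0.066, and the sodium channel Scn1a by -0.44 ± 0.047.

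Of 13 neurofilament and axon genes 7 were higher in VCX and 4 in PFC (median -0.16), and without day 14 the counts were 4 and 4. Spp1, osteopontin, gave 2.58 to 5.51 FPKM (median 3.17) in PFC and 5.4 to 11 (median 8.34) in VCX (-1.26 ± 0.12, adjusted p = 1.19e-08). Nefm, the medium neurofilament, differed by -0.45 ± 0.067 and Vamp1, a synaptic vesicle protein of fast-firing neurons, by -0.52 ± 0.046. Gap43, a growth cone protein, went the other way, at 162 to 227 FPKM (median 196) in PFC and 74.8 to 159 (median 140) in VCX (0.54 ± 0.077, adjusted p = 7.19e-06), with Map1b (0.38) and Stmn2 (0.36). In the perineuronal net list 4 of 16 were higher in each area, among them Acan, aggrecan (-0.68 ± 0.099), and Tnr, tenascin R (0.51 ± 0.055).

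Interneuron genes were called in both directions, with 8 of 27 higher in PFC and 7 in VCX (median 0.01). Pvalb, the calcium-binding protein of fast-spiking basket cells, gave 35.2 to 71.1 FPKM (median 48.8) in PFC and 58.2 to 142 (median 75.2) in VCX (-0.76 ± 0.13, adjusted p = 9.65e-05). Vip, a peptide of disinhibitory interneurons, gave 37.6 to 52.8 FPKM (median 43.0) against 47.3 to 66.1 (median 58.2), a difference of -0.40 ± 0.061 (SE; adjusted p = 1.43e-05). Sst, somatostatin, gave 149 to 240 FPKM (median 197) against 127 to 166 (median 147), a difference of 0.38 ± 0.058 (SE; adjusted p = 1.84e-05). All 3 overlapped between areas. Gad1, a GABA synthesis enzyme, was separated at 72.3 to 85.2 FPKM (median 80.5) in PFC and 87.0 to 105 (median 99.7) in VCX, a difference of only -0.31 ± 0.035 (SE; adjusted p = 1.87e-07), and Gad2 was not called (-0.03).

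Neuropeptide genes were balanced at 9 of 28 in each direction. Crh, corticotropin-releasing hormone, was separated at 2.55 to 4.01 FPKM (median 3.52) in PFC and 4.85 to 8.37 (median 6.65) in VCX (-0.91 ± 0.085, adjusted p = 9.08e-09). Nmb, neuromedin B (-1.01 ± 0.13; its exons overlap Sec11a), was also higher in VCX. Higher in PFC were Tac1, the substance P precursor (0.79 ± 0.14), Adcyap1, the precursor of PACAP (0.68 ± 0.053), Grp, gastrin-releasing peptide (0.59 ± 0.085), Cck, cholecystokinin (0.46 ± 0.067), and Penk, proenkephalin (0.42 ± 0.068). Npy gave 95.5 to 191 FPKM in PFC and 85.8 to 135 in VCX and did not pass the test (0.13 ± 0.089).

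Molecules of axon guidance and cell adhesion were called about evenly in both directions. Of 54 ephrins, semaphorins and guidance receptors, 18 were higher in PFC and 20 in VCX. Sema5a, a transmembrane semaphorin, gave 6.49 to 9.35 FPKM (median 7.54) in PFC and 2.19 to 3.51 (median 2.7) in VCX (1.47 ± 0.061, adjusted p = 4.5e-15), and Unc5d, a netrin receptor of layer 4 neurons, 3.75 to 5.25 (median 4.27) against 10.5 to 18.3 (median 12.1), a difference of -1.5 ± 0.067 (SE; adjusted p = 1.53e-14). Both were separated. Epha7 (0.88), Robo1 (0.77), a Slit receptor, and Sema3c (0.75) were higher in PFC. Efna1 (-1.28), Sema3f (-1.03), Plxnd1 (-0.99), a semaphorin receptor, Ntn4 (-0.98) and Sema3a (-0.92) were higher in VCX.

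Of 29 cadherins, protocadherins and teneurins 11 were higher in each area, and 12 were separated without overlap, beside 3.30% of all tested genes. Tenm3, a teneurin that guides visual connections in the mouse (chromosome 8, 48227682 to 48843951, minus strand), gave 11.1 to 13.5 FPKM (median 11.8) in PFC and 31.8 to 42.6 (median 36.2) in VCX, a difference of -1.61 ± 0.038 (SE; adjusted p = 2.11e-19). Pcdh17, a delta2 protocadherin (chromosome 14, 84443563 to 84539002, plus strand), gave 21.4 to 27 FPKM (median 25) against 7.5 to 10.7 (median 9.14), a difference of 1.41 ± 0.037 (SE; adjusted p = 1.02e-18). The libraries of each area were close together in both genes. Members of one family went opposite ways: Cdh4 (0.83), Cdh9 (0.75) and Cdh11 (0.53) were higher in PFC, and Cdh1 (-0.98), Cdh6 (-0.92), Cdh12 (-0.85) and Cdh20 (-0.74) in VCX.

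Immediate early genes, which neurons transcribe within minutes of activity, were lower in PFC almost throughout: 26 of 30 were called higher in VCX, 0 in PFC, and the other 4 also had negative differences. The median of the list was -0.63, and it was -0.63, -0.70 and -0.58 on days 1, 2 and 14, with 30 of 30 genes below 0 on each day. Fos ranged from 8.24 to 32.5 FPKM (median 19) in PFC and from 15.4 to 94.4 (median 37.7) in VCX, with overlapping groups (-1.07 ± 0.31, adjusted p = 0.0139). Arc, a synaptic plasticity gene, ranged from 47.6 to 131 (median 82.3) and from 87.9 to 319 (median 194), a difference of -1.15 ± 0.19 (SE; adjusted p = 9.35e-05). Libraries of VCX spread more widely than those of PFC in both genes.

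Egr2 differed by -1.34 ± 0.3, Btg2 by -1.01 ± 0.26, Nr4a1 by -0.98 ± 0.24 and Egr1 by -0.83 ± 0.16. Besides Nr4a2, only Fosl2 and Ier5 of the 30 were separated without overlap: Fosl2 gave 6.23 to 8.45 FPKM in PFC and 10.7 to 16.8 in VCX (-0.90 ± 0.045), and Ier5 gave 17.7 to 36.3 and 38.7 to 52.4 (-0.66 ± 0.074). The list's summed level was 443 to 702 FPKM in PFC and 650 to 1460 in VCX, with means on day 2 of 587 ± 112 and 1090 ± 325 (both SD, n = 4). Within a single day 7, 12 and 11 of the 30 genes were called on days 1, 2 and 14, all higher in VCX. Fos lost its call without day 2 or without day 14 (adjusted p up to 0.0843), and Btg2 without day 14 (adjusted p = 0.0586). The time between handling, death and dissection of either area is not given in the sources used here, and its part in the difference was not tested.

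Many immediate early genes are switched on through the cyclic AMP response element, whose core is TGACG. Letters TGACG, or CGTCA on the other strand, were searched in windows of 300 bases around RefSeq gene starts (250 before to 50 after, GRCm38.p6). In any window of a gene they occurred in 17 of 23 immediate early genes with a window (73.9%), in 14 of the 20 called ones (70.0%), and in 35.4% of 10221 tested genes, with 29.4% of the genes higher in PFC, 35.2% of those higher in VCX and 36.5% of those not called. The full palindrome TGACGTCA counts as matches on both strands that overlap. A match describes the letters only. Of the called genes with at least 2 matches in a window, 5 are shown to place the matches relative to the start, and written 5′ to 3′ on the gene's strand, with matches in capitals: Fos at chr12:85473640-85473939 on the plus strand, Nr4a1 at chr15:101266596-101266895 on the plus strand, Nr4a2 at chr2:57123954-57124253 on the minus strand, Btg2 at chr1:134079106-134079405 on the minus strand and Npas4 at chr19:4989922-4990221 on the minus strand.
Fos: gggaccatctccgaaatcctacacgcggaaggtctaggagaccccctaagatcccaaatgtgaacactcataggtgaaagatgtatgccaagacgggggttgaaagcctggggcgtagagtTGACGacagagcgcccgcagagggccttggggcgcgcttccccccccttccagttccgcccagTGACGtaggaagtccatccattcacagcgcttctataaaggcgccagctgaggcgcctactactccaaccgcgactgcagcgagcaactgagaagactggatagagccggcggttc
Nr4a1: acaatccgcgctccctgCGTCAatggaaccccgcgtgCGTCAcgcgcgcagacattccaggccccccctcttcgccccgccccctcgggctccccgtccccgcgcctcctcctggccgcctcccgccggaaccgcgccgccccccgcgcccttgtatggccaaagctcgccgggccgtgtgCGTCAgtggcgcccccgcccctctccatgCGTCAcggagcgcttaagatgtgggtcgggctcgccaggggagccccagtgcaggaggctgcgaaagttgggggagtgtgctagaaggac
Nr4a2: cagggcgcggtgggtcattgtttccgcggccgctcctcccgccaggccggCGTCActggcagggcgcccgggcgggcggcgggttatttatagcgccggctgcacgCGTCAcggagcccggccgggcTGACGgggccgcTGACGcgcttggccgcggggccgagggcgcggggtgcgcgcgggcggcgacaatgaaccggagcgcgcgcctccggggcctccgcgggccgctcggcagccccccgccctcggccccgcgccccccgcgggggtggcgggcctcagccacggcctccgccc
Btg2: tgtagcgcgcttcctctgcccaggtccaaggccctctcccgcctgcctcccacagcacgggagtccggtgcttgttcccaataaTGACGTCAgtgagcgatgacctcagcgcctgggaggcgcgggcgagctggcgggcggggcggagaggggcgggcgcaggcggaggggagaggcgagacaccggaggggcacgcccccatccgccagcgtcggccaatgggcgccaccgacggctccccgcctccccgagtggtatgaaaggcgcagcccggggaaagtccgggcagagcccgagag
Npas4: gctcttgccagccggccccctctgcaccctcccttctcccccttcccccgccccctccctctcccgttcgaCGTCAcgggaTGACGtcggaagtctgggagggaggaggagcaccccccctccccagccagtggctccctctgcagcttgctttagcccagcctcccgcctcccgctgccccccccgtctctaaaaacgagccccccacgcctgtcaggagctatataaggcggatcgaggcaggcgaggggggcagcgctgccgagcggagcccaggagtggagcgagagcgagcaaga

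The windows of Nr4a1 and Nr4a2 hold 4 matches each, and those of Fos, Btg2 and Npas4 hold 2; in Btg2 the 2 matches overlap. Fos and Nr4a1 differed by -1.07 and -0.98, Nr4a2 by -2.20 and Npas4, an activity-dependent transcription factor of neurons, by -0.55 ± 0.13. Fosl2 and Ier5, both separated between the areas, have windows with 0 matches.

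**Figure D4:**
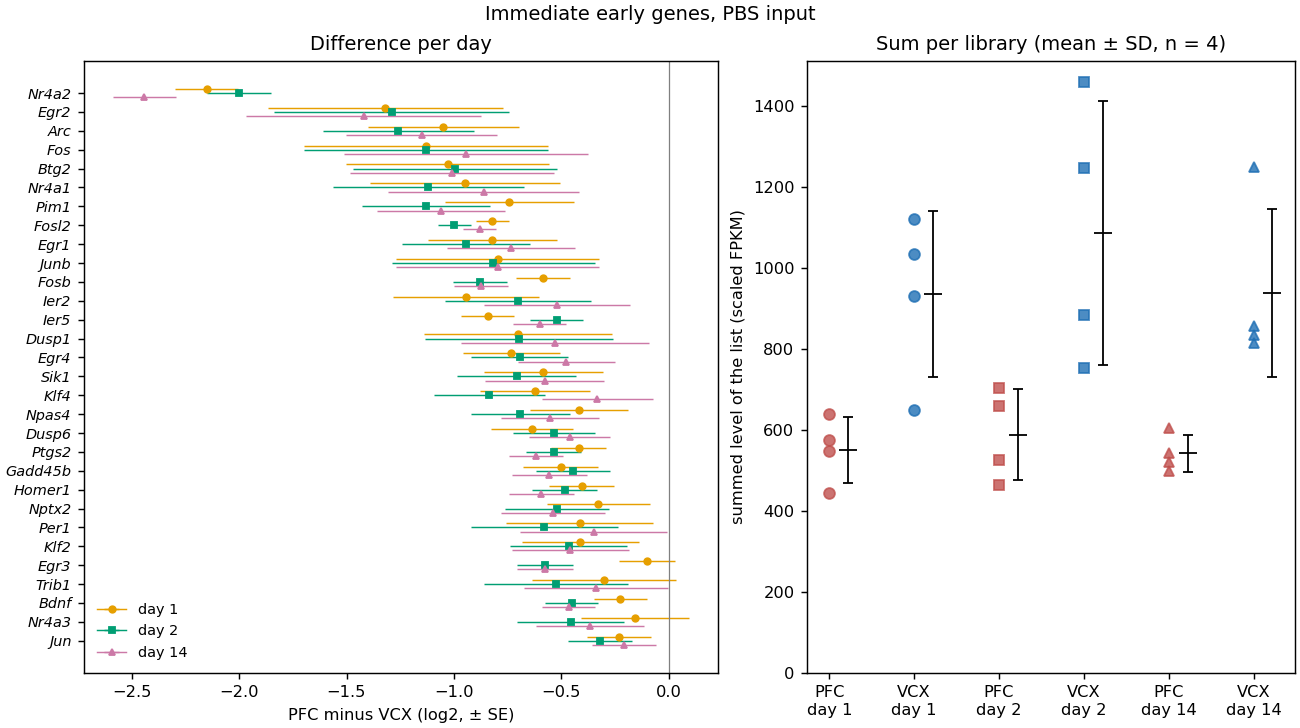
Left, log2 difference PFC minus VCX (± SE) of the 30 immediate early genes on each day; right, their summed scaled FPKM in each of the 24 libraries with mean ± SD of the 4 libraries per area and day. All differences lie below 0, and the sums reach 702 in PFC and 1460 in VCX.

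Of 12 excitatory neuron markers 5 were higher in PFC and 3 in VCX, among them Neurod6 (1.13) and Emx1 (-0.74), which are also on the patterning list, Sv2b, a synaptic vesicle protein (0.33), and Arpp21 (-0.42). Slc17a7, the vesicular glutamate transporter of cortical neurons, lay at 344 to 491 FPKM (median 388) in PFC and 289 to 475 (median 351) in VCX (0.18 ± 0.037, adjusted p = 0.000852, and 0.158 without day as a block). Astrocyte markers were lower in PFC where called, 5 of 20, with a median of -0.09. Gfap, the astrocyte intermediate filament, gave 11 to 18 FPKM (median 15.3) in PFC and 15.4 to 24.3 (median 20.8) in VCX (-0.43 ± 0.058, adjusted p = 2.64e-06). None of 20 oligodendrocyte genes was called over all days by limma, Mbp included (-0.05 ± 0.07). On day 2 alone 4 of them were called higher in PFC, beside 12.4% of all tested genes called on that day in either direction. The list median was 0.31 on day 2 and -0.13 and -0.16 on days 1 and 14, but limma called 0 area by day interactions among all tested genes. Of 16 microglial and macrophage markers 5 were higher in PFC and 1 in VCX (median 0.13), with Aif1 at 0.42 and Mrc1, a marker of perivascular macrophages, at -0.27. Without day as a block 3 were higher in PFC and 0 in VCX. Of endothelial markers 1 of 14 was called and of oligodendrocyte precursor markers 2 of 12, 1 in each direction. Of 8 pericyte and smooth muscle markers, 2 were higher in PFC (Acta2, 1.12, and Tagln, 0.73, which lost its call without day 1) and 1 in VCX. Of 15 meningeal fibroblast markers 6 were higher in VCX, 1 was higher in PFC and 8 were not called (median -0.20, and -0.06 on day 1), and without day 14 the counts were 2 and 0. Their sums were 62.9 to 90.3 FPKM in PFC and 77.2 to 105 in VCX. Their part in the area differences was not tested. Of 11 blood genes 3 were tested and 1, S100a9, a neutrophil protein, was higher in PFC (1.42); Hba-a1, Hbb-bt and Hbb-b2 were listed at 0 in every library.

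Tissue next to the dissected areas was checked through its markers. The summed level of 19 striatal markers was 95.4 to 112 FPKM in PFC and 96.8 to 110 in VCX. Adora2a, Six3, Isl1 and Drd2, which define striatal neurons, stayed below the test filter, and Six3 and Isl1 did not exceed 0.0223 FPKM in any library. Of the 11 tested, 5 were higher in PFC, among them Tac1, Actn2 (0.74) and Drd1a, and 2 higher in VCX, among them Gpr6 (-1.36 ± 0.19), a G protein-coupled receptor. Olfactory markers split 3 and 2 of 7: Shisa3 lay at medians of 0.152 FPKM in PFC and 1.26 in VCX (-2.50 ± 0.14) and shares exon sequence with Atp8a1. Shisa3 passed the low-value filter through VCX alone, and its difference ran from -3.18 to -0.97 over the alternatives. Slc17a6, the second vesicular glutamate transporter and a gene of the thalamic list, gave 3.02 to 4.4 FPKM in PFC and 5.68 to 10.1 in VCX (-1.18 ± 0.061). Of 8 tested genes of the thalamic and habenular list, 2 were higher in PFC (Ramp3 and Zic1) and 2 in VCX (Slc17a6 and Tnnt1). The listed markers Tcf7l2, Pou4f1, Lhx9 and Gbx2 stayed below the filter, Pou4f1 and Gbx2 at no more than 0.0499 FPKM. Spink8, one of the leading PFC genes, is also a hippocampal marker; Fibcd1, a marker of hippocampal CA1 neurons, had medians of 1.37 FPKM in PFC and 1.34 in VCX and was not called. Claustrum markers gave 2 higher in PFC and 4 in VCX of 9, and hippocampal markers 2 and 2 of 10. Retrosplenial cortex markers gave 5 and 3 of 9, and 4 of the 9 did not overlap between areas. Choroid plexus markers gave 1 and 0 of 5, and neuroblast markers 1 and 2 of 8. Cbln4, a leading VCX gene, is also on the retrosplenial list. Nr4a2, another leading VCX gene, is also on the claustrum list, as are Oprk1 and Slc17a6. The part of neighbouring tissue in single genes was not tested.

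Of the 3673 called genes 3634 (98.9%) had the same sign on each day and 845 were called on all 3 days; the genes were called on the average of these same days, so this is a description. As contrasts within each day, 4 libraries against 4 in a fit over all 24 that shares 1 estimate of the spread, 1541 genes (11%) were called on day 1, 1737 (12.4%) on day 2 and 1390 (9.94%) on day 14. With each day's libraries fitted alone the counts were 1504, 1429 and 813. No gene's area difference varied with day at the threshold: limma called 0 (0%) area by day interactions, 0.594 was its smallest adjusted p, and 492 genes (3.52%) fell under 0.05 before adjustment. On recovered reads limma-voom also called 0, with 555 genes at an unadjusted p under 0.05. For area by sex limma called 0 (0%), with 400 genes (2.86%) at an unadjusted p under 0.05, and limma-voom 0, with 415. The smallest interaction p-values with day belonged to Phlda3, a p53 target, at 0.33, 0.90 and 0.51 on days 1, 2 and 14, Susd3 at 0.11, -0.10 and 0.74, Ntn4 at -1.15, -1.29 and -0.51, and Snord73a, a small nucleolar RNA, at 0.17, -2.71 and 2.28. None of these 4 passed the adjusted threshold.

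Libraries of the LPS-treated mice, which share no library with the PBS comparison, gave a second measurement of the areas. They held 4211155 to 50881183 reads. There 4432 of 14169 tested genes (31.3%) were called, 2339 higher in PFC and 2093 higher in VCX. Of 3656 PBS calls tested in the LPS libraries, 3600 (98.5%) had the same sign and 2845 (77.8%) were called with that sign. From the other side, 64.7% of the LPS calls among genes tested in both were called with the same sign in PBS. A single gene, Tbl2, was called with opposite signs (-0.10 in PBS and 0.11 in LPS). All 24 leading genes were called with the same sign: Glipr1 differed by 2.63, Sebox by 2.73, Rxrg by 2.03, Endou by -2.96, Ntn5 by -2.79, Nr4a2 by -2.03 and Brinp3 by -1.70. Layer 4 genes gave 8 of 9 higher in VCX (median -1.18), layer 5 genes 11 of 16 higher in PFC (median 0.27), and immediate early genes 22 of 30 higher in VCX with 0 in PFC (median -0.58). Other lists changed in part. Of 24 glutamate receptor genes 11 were higher in PFC and 2 in VCX. Of 8 pericyte and smooth muscle markers 0 were higher in PFC and 1 in VCX. Gfap did not pass the test there (-0.35, adjusted p = 0.108); whether its area difference differs between PBS and LPS was not tested.

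**Figure D5:**
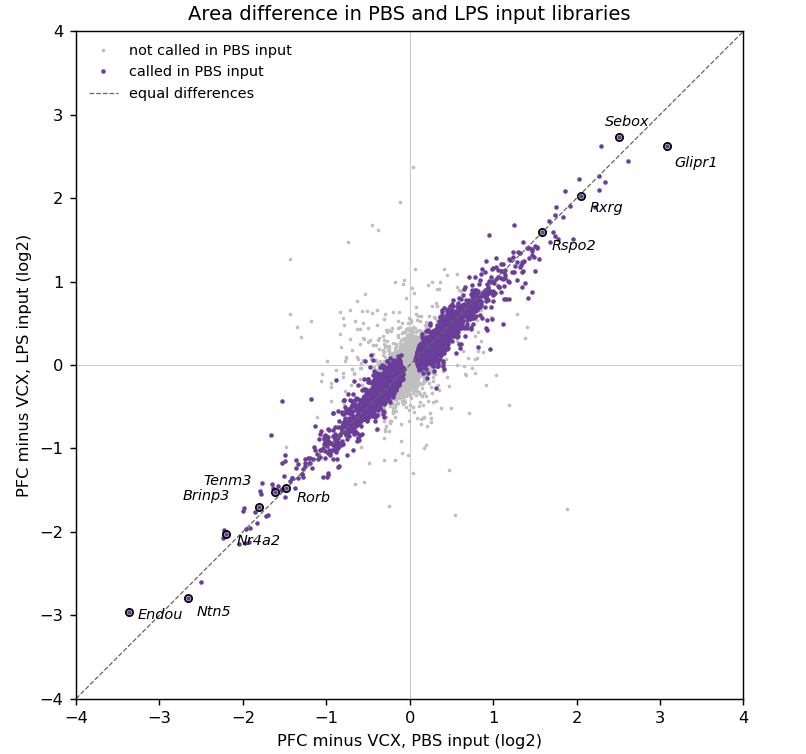
Log2 difference PFC minus VCX of each gene tested in both the PBS input (x axis, 24 libraries) and the LPS input (y axis, 23 libraries), with genes called in PBS in purple and the line of equal differences dashed. Named genes lie near the line, from Endou (-3.37 and -2.96) to Glipr1 (3.08 and 2.63).

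In the astrocyte pulldown of the same PBS arm 2297 of 12589 tested genes (18.2%) differed between areas. Of 3115 input calls tested there 1016 were called, 837 with the same sign and 179 with the opposite one. Nr2f1 had a larger difference in the pulldown, at means of 11.9 FPKM in PFC and 55.1 in VCX (-2.19, adjusted p = 1.33e-23), beside -0.60 in input, and Aldh1a1 stood at 37.9 and 144 (-1.93, adjusted p = 1.17e-16) beside -1.17. The sizes were not compared by a test. Rorb differed by -0.34 in the pulldown and -1.48 in input, Tenm3 by -0.43 and -1.61, Pcdh17 by 0.41 and 1.41, and Rxrg by 1.00 and 2.05. Brinp3 went opposite ways: it averaged 12 FPKM in PFC and 5.99 in VCX in the pulldown (0.99, adjusted p = 8.41e-15), against 7.11 and 25.3 in input. Of the 24 leading genes 12 were tested in the pulldown, of which 7 were called with the same sign and 1, Brinp3, with the opposite sign. Immediate early genes were called higher in VCX in 11 of 27 and in PFC in 1.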

How the data were processed

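The 24 libraries compared were polyA RNA-seq libraries of cleared cortical lysate, and the deposited values are FPKM per gene and library, as identified from the values themselves. Reads were aligned with STAR to mm10 and counted with HTSeq, per the submitters' processing notes; versions, the annotation and the use of strand are not given in the sources used here. FPKM fixes each library's total, so a large change in a few abundant genes shifts all others. In each library every value above 0 was a whole multiple of what 1 read is worth, within 0.05 reads. These multiples gave the depths and the reads for limma-voom. The standard errors come from the limma fit and measure the spread between libraries.

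FPKM were divided by trimmed-mean scaling factors, and genes with at least 0.5 FPKM in 12 libraries were tested with limma on log2(FPKM + 0.1) with a mean trend, robust estimation, day and sex as terms and Benjamini-Hochberg adjustment. A fold on this scale understates the change of low genes. The fit was tested on simulated data. R 4.3.3, limma 3.58.1, Python 3.11.15, pandas 2.3.3, numpy 2.4.6 and matplotlib 3.10.9 were used. Replicate libraries of a group were compared, and no pair was as close as sampling noise. Leading genes were, per direction, the 12 with the largest difference among called genes that met all of these conditions. The areas did not overlap, the sign was the same on each day, and the mean in the higher area was at least 2 FPKM. Genes with Gm, Rik, mitochondrial, date or accession-like names were left out. Also named were up to 6 called members per list and members that help to read it. Further named were 16 genes given whatever their result and the 4 genes with the lowest interaction p. Other genes were named after their values were seen. Some genes that the rule names are not reported here. The 38 gene lists and the comparison were chosen with earlier results of these data known. Gene positions come from GENCODE vM21 on mm10, and promoter windows from RefSeq on GRCm38.p6. Alternatives were other pseudocounts, filters, scalings and covariates, limma-voom, and leaving out days and single libraries.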

Additional observations from a re-analysis of the deposited data

Results flagged for a closer look

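In 13 of 240 groups of 4 libraries (5.42%), examined for 40 genes, 1 library lay far from the other 3 relative to the group's range. Chance gives such a gap in about 1 of 20 groups.

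Glipr1 was 1.0 FPKM in VCX replicate 2 of day 1, while the other 3 libraries lay at 0.155 to 0.219. Fos was 77.4 FPKM in VCX replicate 1 of day 14, against 23.2 to 26.6 in the others. Rspo2 stood at 10.8 in PFC replicate 4 of day 2 and at 3.62 in VCX replicate 2 of day 2. Fam19a2 stood at 27.2 in VCX replicate 2 of day 2 and at 6.24 in PFC replicate 2 of day 14. For Endou, PFC replicate 2 of day 14 gave 0.046 FPKM against 0.199 to 0.208. Nr2f1 gave 39.6 in VCX replicate 3 of day 2 and 36.9 in PFC replicate 3 of day 14. Cux2 reached 29.5 in VCX replicate 4 of day 14, Fezf2 11.3 in VCX replicate 2 of day 2, Vip 47.3 in VCX replicate 4 of day 2 and Slc17a7 380.0 in PFC replicate 1 of day 14. VCX replicate 2 of day 2 carried 3 of these values and PFC replicate 2 of day 14 carried 2; they were the shallowest libraries, at 13197034 and 7985137 reads, and the part of depth was not tested. With these values included, the libraries of PFC and VCX did not overlap for Glipr1, Rspo2, Endou, Fam19a2 and Nr2f1. They overlapped for Cux2, Fezf2, Vip, Fos and Slc17a7. For Glipr1, Rspo2, Endou and Fam19a2 the absence of overlap was a condition of their choice.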

How the results depend on the processing

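Of 3673 genes called, the number was 2536 to 4046 over 14 alternatives, the lowest without day 2 and the highest with no filter on low values, and 3405 to 3948 when single libraries were left out; no gene called both ways changed sign. Without day 2, 1220 genes were higher in VCX instead of 1848, and fitting day 14 alone called 813 instead of 1390; both use fewer libraries. Without day as a block 2592 genes were called, and limma-voom called 3774. Mbp, not called, moved from -0.05 to 0 without day 14 (adjusted p = 0.988). Snord73a, not called, was 1.23 without day 2 (adjusted p = 0.135) and between -0.43 and 0.24 when single libraries were left out. Of 7318 rechecks of 193 named genes, 7158 kept direction and call, 146 lost a call, 5 gained one and 9 changed sign. The immediate early gene list held 19 to 30 called genes, all higher in VCX, with medians of -0.69 to -0.55, and the 19 came without day 14. No paired analysis was possible because the labels give no replicate number that a PFC and a VCX library of a day share. Depth limits genes near 0.5 FPKM most, and the PFC library of day 14 with 7985137 reads most of all; leaving it out gave 3603 called genes.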

Other observations

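Aldh1a7, a close relative of Aldh1a1, was higher in PFC, at 0.761 to 1.82 FPKM (median 1.3) against 0.141 to 0.498 (median 0.306) in VCX, a log2 difference of 1.86, while Aldh1a1 differed by -1.17. Aldh1a7 passed the low-value filter through PFC alone, and the LPS libraries gave 2.09 for it. How the counting treated reads shared between near-identical sequences is not given in the sources used here, which makes the low level of Aldh1a7 uncertain.

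Several genes had opposite area differences in whole lysate and in the astrocyte pulldown. Ranked by the smaller of the 2 absolute differences, Brinp3 came first, followed by Lphn2, a latrophilin adhesion receptor (0.97 in input and -1.34 in the pulldown), Casp1, the inflammasome protease (-0.92 and 2.54), Pstpip1, an adaptor of immune cells (1.47 and -0.75), Lmo1, a LIM-only factor (0.74 and -1.04), and Kcnk2, a two-pore-domain potassium channel (-0.77 and 0.68). They were chosen after their values were seen, and the difference between the fractions was not tested.

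Other large area differences were Esr1, the estrogen receptor (1.43), and Dmrt2 (1.43), a transcription factor, both higher in PFC, and Nrtn, neurturin (-1.53), and Il1b, interleukin-1 beta (-1.53, at medians of 0.224 FPKM in PFC and 0.916 in VCX), higher in VCX. In the LPS libraries Esr1, Dmrt2 and Nrtn were called with the same sign, and Il1b did not pass the test (adjusted p = 0.118). These too were chosen after their values were seen.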
